A study of Mus musculus with 27 samples.

Results

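Hmgcs1, Idi1, Fdps, Sqle, Lss, Cyp51 and Insig1 were followed by bulk RNA-seq through injury and repair of mouse skeletal muscle. These 7 cholesterol synthesis genes were taken by gene name from the deposited expression tables, which list 55852 entries for injured muscle and 55677 entries for control and early injured muscle. The first 6 encode enzymes of the mevalonate and cholesterol pathway, and Insig1 encodes a regulator of that pathway. Libraries came from the muscle of male mice, which were WT (C57BL/6J) or deficient in Gsdme, the gene of the pore-forming protein gasdermin E. Injured muscle had received cardiotoxin (CTX), a peptide of cobra venom that destroys muscle fibres, and was taken after 1, 4, 7 and 14 days (written D1 to D14), with n = 3 for each genotype and day and 24 libraries in all. Control muscle (n = 3) came from WT mice only, so that no KO control could be set beside the injured KO muscle. The mutant mice are called KO here as in the sample titles, whereas the genotype field of those samples reads knockdown, and the study describes a knockout in all tissues bred with WT littermates. The study names the gastrocnemius as the injured muscle and the other leg as control, while the deposited design text names thigh muscle and unloaded muscle. Ages were not given, and nothing in the labels tells whether the 3 libraries of a group came from separate mice, so that p-values measure the spread between libraries, which may in part be technical.

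Cholesterol is built from acetyl units through mevalonate and isoprenoids to squalene, which is then closed into a ring and trimmed to the sterol. Hmgcs1 joins acetoacetyl-CoA and acetyl-CoA near the start of the pathway, Idi1 interconverts the isoprenoid building blocks, and Fdps condenses them to farnesyl diphosphate, from which cholesterol and protein prenyl groups are both made. Sqle oxidizes squalene, Lss closes it to lanosterol, and Cyp51 removes a methyl group from lanosterol. When sterols are scarce, the transcription factor SREBP2, encoded by Srebf2, is cut in the Golgi and enters the nucleus, where it turns on these genes together through sterol regulatory elements in their promoters. INSIG1 holds the SREBP2 escort protein SCAP in the endoplasmic reticulum when sterols are plentiful, and its own gene is a target of SREBP2. Regenerating muscle holds dividing myoblasts, which build new membrane, and incoming macrophages, which take up the membranes of dead fibres.

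Promoter sequence is shown because these genes are textbook SREBP2 targets. Windows from 250 bases before to 50 bases after the gene start were given by RefSeq (GRCm38.p6) for 5 of the 7 genes, Hmgcs1, Idi1, Lss, Cyp51 and Insig1. They were searched on both strands for a sterol regulatory element (TCACNCCAC, and the shorter CACNCCAC that lies within it), for CCAAT, bound by NF-Y, and for GGGCGG, bound by Sp1. Stretches outside annotated exons are printed for 4 genes, on the strand of the gene, with every match in capitals, so that ATTGG is CCAAT and CCGCCC is GGGCGG on the other strand.
Hmgcs1: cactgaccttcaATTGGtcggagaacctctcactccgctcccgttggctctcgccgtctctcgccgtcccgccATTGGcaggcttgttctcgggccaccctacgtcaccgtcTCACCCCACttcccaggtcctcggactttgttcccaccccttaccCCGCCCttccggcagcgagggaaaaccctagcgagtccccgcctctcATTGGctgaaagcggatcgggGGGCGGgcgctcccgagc
Insig1: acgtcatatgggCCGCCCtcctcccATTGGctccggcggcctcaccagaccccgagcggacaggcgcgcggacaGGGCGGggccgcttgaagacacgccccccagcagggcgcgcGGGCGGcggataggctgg
Lss: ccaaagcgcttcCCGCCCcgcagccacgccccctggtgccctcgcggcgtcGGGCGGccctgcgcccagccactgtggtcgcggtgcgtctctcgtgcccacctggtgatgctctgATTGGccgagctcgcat
Cyp51: gccccacggaggGGGCGGtgcccgggccgc
The Hmgcs1 stretch lies at chr13:119690102-119690344 on the plus strand, from 249 to 7 bases before the gene start. Distances are counted from the RefSeq start, which differs from the GENCODE start given below. Its TCACCCCAC begins 137 bases before the start and stands between CCAAT matches on the other strand. The Insig1 stretch lies at chr5:28071171-28071303 (plus strand), the Lss stretch at chr10:76531427-76531559 (plus strand) and the Cyp51 stretch at chr5:4104815-4104844 (minus strand). The full sterol element was in 1 of the 5 windows (Hmgcs1) and in 1.24% of 32851 windows of all genes, and the shorter form was in 2 of 5 windows (Hmgcs1 and Insig1) and in 6.24% of all. The Insig1 match begins 9 bases before the start, outside the printed stretch, and is not shown. CCAAT and GGGCGG were each in 5 of 5 windows, against 37.4% and 35.7% of all windows. A match describes the letters only, and the windows without a match say nothing about SREBP2. The genes themselves lie, in GENCODE M21 (GRCm38), at chr13:119690379-119708260 (Hmgcs1, plus strand), chr13:8885501-8892451 (Idi1, plus), chr3:89093588-89101959 (Fdps, minus), chr15:59315077-59331192 (Sqle, plus), chr10:76531588-76557138 (Lss, plus), chr5:4081145-4104746 (Cyp51, minus) and chr5:28071363-28078662 (Insig1, plus).

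Expression was given as TPM, a share of a library's transcripts after division by gene length. TPM keeps no read number, and sequencing depth is therefore unknown. Genes at 1 TPM or more numbered from 11785 to 14704 per library, and in injured muscle between 25.4% and 61.4% of a library's TPM lay in its top 50 genes. Muscle identity was checked with 8 mature myofibre markers, whose summed TPM was from 41136 to 193858 over all 27 libraries. KO D4 replicate 2 stood apart from its group, with a summed TPM of 61.9 for 8 regenerating myofibre markers (1219 and 1328 in replicates 1 and 3) and of 428 for 8 macrophage and leukocyte markers (3605 and 3025). WT D1 replicate 3 had 830 TPM of these leukocyte markers, against 2461 and 3857 in WT D1 replicates 1 and 2. Gsdme, the targeted gene, was from 2.76 to 4.85 TPM in WT D1 and from 1.28 to 2.17 TPM in KO D1, from 2.63 to 3.02 and from 1 to 1.64 TPM on D4, and from 1.8 to 2.51 and from 0.95 to 1.37 TPM on D7, without overlap on these days. On D14 it was from 1.46 to 2.26 TPM in WT and from 1.27 to 1.96 TPM in KO, which overlapped, and averaged over days its difference, -0.55 ± 0.09 (SE) on the log2 scale, had an adjusted p of 0.0664 by limma. The study describes 2 sequencing batches, and neither it nor the labels say which holds the WT D1 libraries. Batch therefore cannot be told apart from injury, from genotype on D1 or from the WT step from D1 to D4. The genotype tests over all days use the WT D1 libraries as well.

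Levels differed widely between the 7 genes. TPM is per length, so that the levels of genes can be set side by side. Fdps was the most abundant, with group means from 19.5 to 53.4 TPM in injured muscle, followed by Hmgcs1 (10.8 to 19.9 TPM) and Insig1 (6.66 to 13.2 TPM). Cyp51 (2.06 to 8.92 TPM), Idi1 (3.45 to 5.91 TPM) and Sqle (1.05 to 5.84 TPM) were lower. Lss was the lowest on D1, D4 and D7, and its group means were from 1.01 to 2.48 TPM. When the 8 injured groups were ordered by mean, WT D14 came last for 6 of 7 genes, and for Lss KO D7 did. WT D4 came first for Hmgcs1, Fdps, Cyp51 and Insig1, WT D1 for Idi1 and Sqle, and KO D4 for Lss. Neighbours in this order overlapped in 7 of 7 steps for each gene except Fdps, where they overlapped in 5 of 7. The order was set by the same means, so that neighbours are the groups most likely to overlap. Fdps in KO D4 stood clear of KO D1, as did 10.9% of all tested genes in this direction. It also stood clear in KO D1 of KO D7, for which no share over all genes was taken. The summed TPM of the 7 genes was from 40.8 to 48.9 in control muscle, from 77.9 to 127 in WT D1, from 99.3 to 121 in WT D4, from 52.6 to 66.6 in WT D7 and from 41 to 50.8 in WT D14. In KO it was from 75.5 to 93.2 on D1, from 74.1 to 92.9 on D4, from 53.2 to 58.8 on D7 and from 41.1 to 59.5 on D14.

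**Figure D1:**
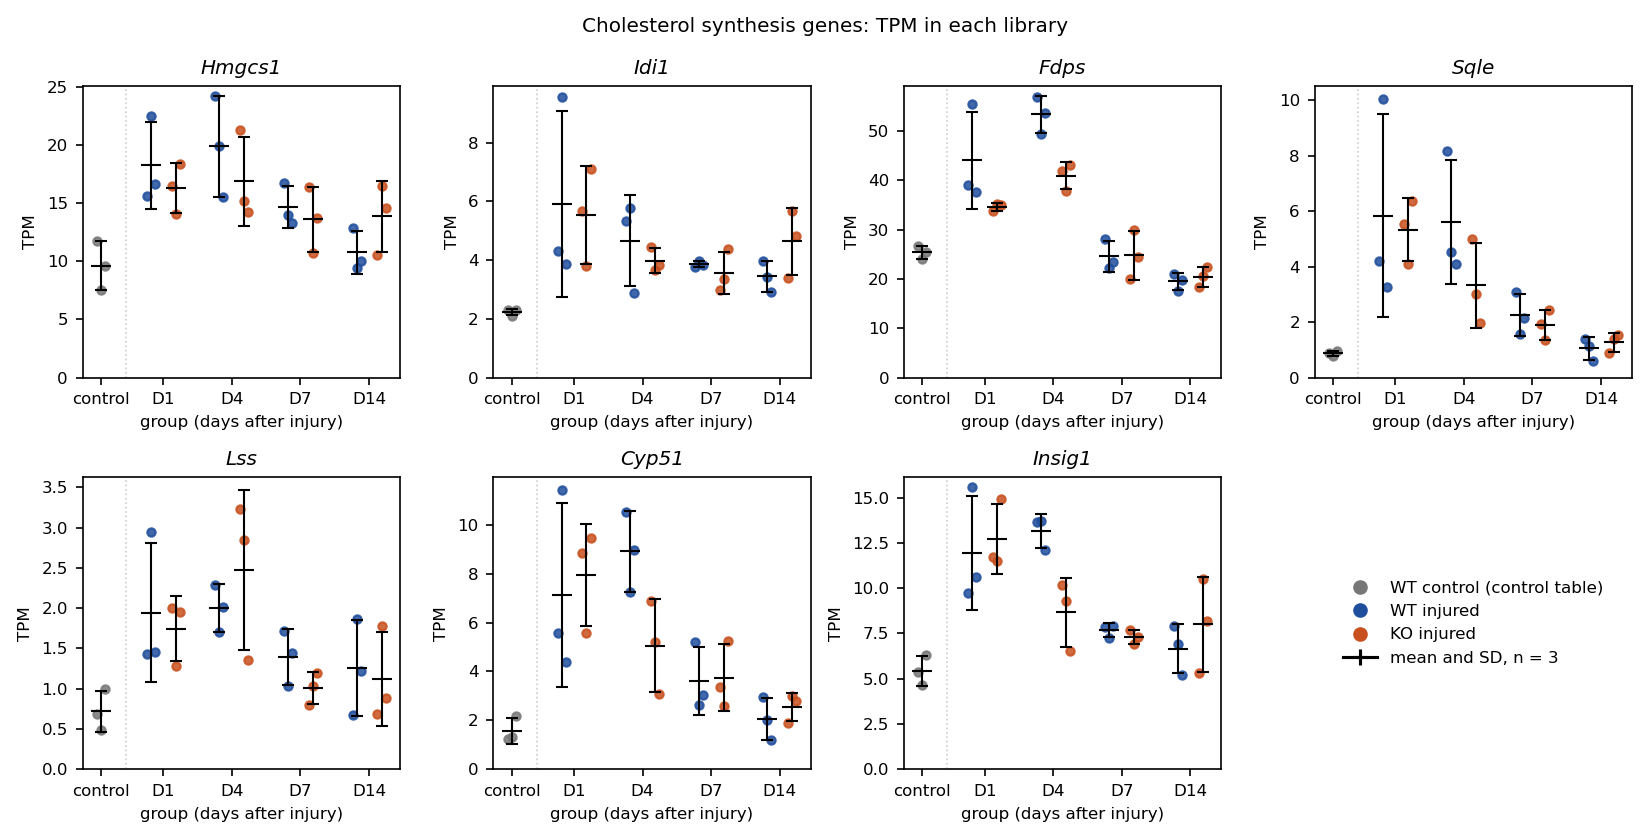
TPM (linear axis from 0) of each gene in every library, by group: control muscle in grey, injured WT in blue and injured KO in orange, with the mean and SD of 3 libraries as black bars. Control values come from a table quantified separately from the injured one; Fdps is seen to drop between D4 and D7 in WT, and Sqle from a mean of 5.59 TPM on D4 to 1.05 TPM on D14.

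The first comparison asked how the pathway stood in WT muscle 1 day after CTX. All 7 genes were higher in WT D1 than in control muscle, with no overlap between the 3 libraries of each group. In mean TPM the steepest rise was in Sqle, the squalene oxidase, and Cyp51, and the flattest in Fdps and Hmgcs1. In limma on log2(TPM + 1), with Benjamini-Hochberg adjustment over 13041 genes and a threshold of 0.05, 7 of 7 were called higher. Of all tested genes 55.4% were called higher and 64.2% stood above control without overlap, so that the count alone does not set these genes apart. Their median difference was 1.00 on the log2 scale, beside 0.66 over all tested genes. Sqle and Lss were under 1 TPM in every control library and were tested only because of their D1 values.

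Hmgcs1 was at 11.8, 7.52 and 9.63 TPM in control replicates 1 to 3 and at 15.6, 22.6 and 16.7 TPM in WT D1. This entry enzyme rose 1.90-fold in mean TPM (log2 difference 0.86 ± 0.23 SE, adjusted p = 0.012 by limma). Idi1, the isomerase, was at 2.31, 2.11 and 2.29 TPM in control muscle and at 4.31, 9.58 and 3.88 TPM on D1. Its mean was 2.65-fold higher (1.01 ± 0.31, limma adjusted p = 0.0214), and D1 replicate 2 was more than the other D1 libraries by a wide margin. Fdps was at 26.73, 23.95 and 25.39 TPM in control and at 39.5, 56.2 and 38.0 TPM on D1, a 1.76-fold difference (0.77 ± 0.19, limma adjusted p = 0.00958). Control values of Fdps were tightly grouped, and the lowest D1 library was above the highest of them.

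Sqle was at 0.87, 0.78 and 0.97 TPM in control muscle and at 4.21, 10.1 and 3.28 TPM on D1. Its mean was 6.69-fold higher, the widest gap of the 7, and 4.29-fold higher without D1 replicate 2 (1.74 ± 0.34 SE, limma adjusted p = 0.00424). Lss was at 0.68, 0.48 and 0.99 TPM in control and at 1.44, 2.94 and 1.46 TPM on D1. The cyclase thereby had the smallest difference on the log2(TPM + 1) scale (0.75 ± 0.25, limma adjusted p = 0.0298), a scale that understates the change of genes this low, and its means differed 2.72-fold. Cyp51, the lanosterol demethylase, was at 1.23, 1.3 and 2.19 TPM in control and at 5.58, 11.5 and 4.39 TPM on D1, or 4.54-fold higher (1.58 ± 0.33, limma adjusted p = 0.0052). For Insig1 the values were 5.34, 4.63 and 6.29 TPM in control and 9.74, 15.6 and 10.6 TPM on D1, a 2.21-fold difference (1.00 ± 0.23, limma adjusted p = 0.00747). WT D1 replicate 2 was the highest library for each of the 7 genes. Without it, Cyp51 was still 1.23 higher (limma adjusted p = 0.00555) and Sqle 1.34 higher (adjusted p = 0.00251), and 6 of 7 were called, Lss being lost (adjusted p = 0.0619). Sqle was tested only because of its D1 values, so that its call lends no support. Without control replicate 2, 4 of 7 were called.

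These differences depended on how the libraries were scaled. TPM values are shares, and control libraries gave more of theirs to a few abundant muscle transcripts. With median-of-ratios scaling, which sets the typical gene level between libraries, the median of all tested genes went from 0.66 to about 0 (0.0018), and 21.2% of genes were called higher and 21.2% lower, in place of 55.4% and 5.64%. Sqle (1.21, limma adjusted p = 0.0109) and Cyp51 (0.99, adjusted p = 0.019) were still called, and the other 5 were not. Their differences were then 0.39 for Idi1, 0.33 for Lss, 0.30 for Insig1 and 0.13 for Hmgcs1, and that of Fdps was -7.11e-05. Sqle passed the filter on low values through its D1 libraries alone, so that its test lends no support, and Cyp51 was the one called gene under this scaling to which that does not apply.

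Leukocyte, neutrophil and proliferating cell markers moved with the D1 difference. Of 8 macrophage and leukocyte markers 8 were called higher, as were 6 of 6 neutrophil and 8 of 8 proliferating cell markers. None of them was at 0 in any of these libraries. Of all tested genes 55.4% were called higher and 5.64% lower. The summed TPM of the macrophage and leukocyte list was from 145 to 189 in control muscle and from 830 to 3860 in WT D1, that of the neutrophil list from 5.28 to 10.7 and from 65.4 to 674, and that of the proliferating list from 2.56 to 4.31 and from 46.2 to 216. With control sums this low, not all neutrophil and proliferating markers reached 1 TPM in control muscle. Such genes passed the filter on low values through their D1 libraries, so that their calls lend no support. WT D1 replicate 2, the highest library for the 7 genes, was also highest for the leukocyte list, whereas replicate 3, the lowest for that list, had 78.3 TPM of the 7 genes beside 80.5 TPM in replicate 1 and 128 TPM in replicate 2. Mature myofibre markers were called lower in 3 of 8 cases (summed TPM from 150584 to 163705 in control and from 77976 to 157436 in WT D1), and adipocyte markers in 5 of 6 tested. Their part in the result was not tested, and in bulk tissue fewer cells of a type and less RNA per cell cannot be told apart.

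**Figure D2:**
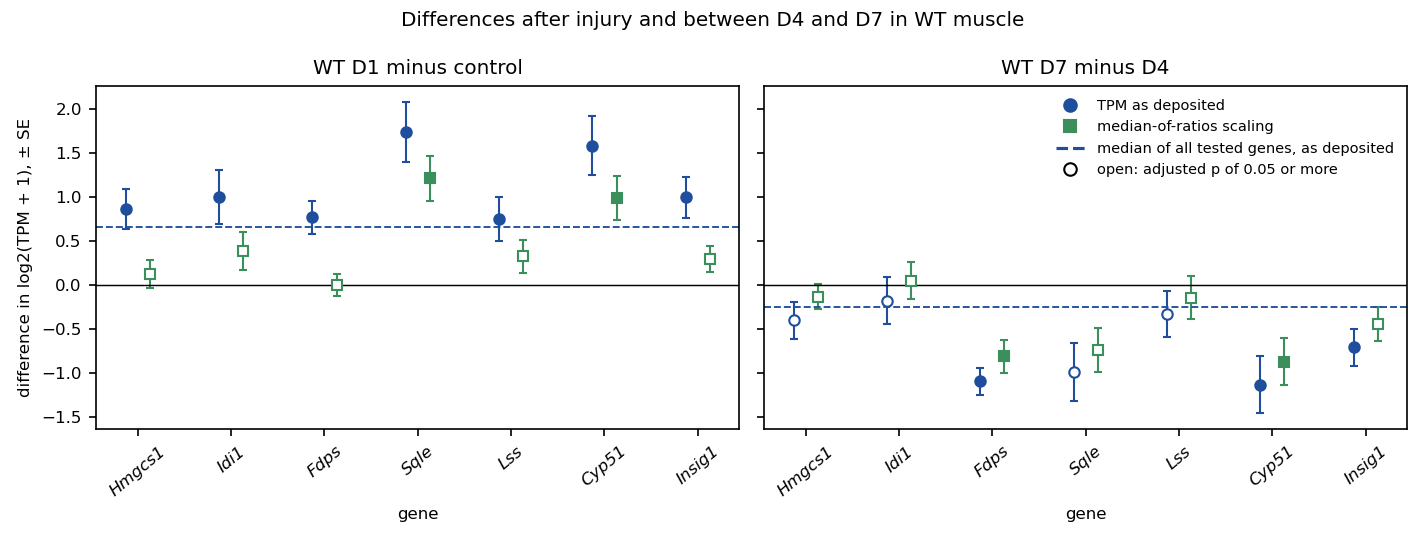
Difference in log2(TPM + 1) ± SE of each gene for WT D1 minus control (left) and WT D7 minus D4 (right), from TPM as deposited (blue circles) and after median-of-ratios scaling (green squares), with filled symbols for an adjusted p under 0.05. The dashed line is the median of all tested genes as deposited, 0.66 on the left and -0.24 on the right; Sqle and Cyp51 are filled under both scalings on the left, and Fdps and Cyp51 on the right.

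The next comparisons followed injured WT muscle from day to day. From D1 to D4, 0 of 7 were called by limma (14.6% of 15718 genes were called higher and 5.27% lower), and 0 had an unadjusted p under 0.05 (32.6% of all genes). Fdps was at 38.97, 55.4 and 37.7 TPM on D1 and at 57.0, 49.4 and 53.7 TPM on D4 (0.29 ± 0.15 SE, adjusted p = 0.203). Without WT D1 replicate 2 this difference was 0.46 and was called (adjusted p = 0.0335). The differences of the other 6 genes were from -0.24 (Idi1) to 0.37 (Cyp51), and each gene's D1 and D4 libraries overlapped.

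Between D4 and D7, Fdps, Cyp51 and Insig1 fell in WT muscle. Limma called these 3 of 7 lower, where 9.31% of all tested genes were called lower and 3.04% higher, and the median of the 7 was -0.71 beside -0.24 over all genes. Fdps went from the D4 values just given to 28.2, 22.2 and 23.3 TPM on D7, 2.17-fold lower (-1.09 ± 0.15 SE, adjusted p = 0.00129). Every D7 library of this gene was below every D4 library. Cyp51 was at 10.54, 7.24 and 8.98 TPM on D4 and at 5.2, 2.61 and 3.02 TPM on D7, 2.47-fold lower (-1.13 ± 0.33, limma adjusted p = 0.0321). Insig1 was at 13.7, 13.7 and 12.1 TPM on D4 and at 7.86, 7.24 and 7.92 TPM on D7, 1.72-fold lower (-0.71 ± 0.21, limma adjusted p = 0.037). Sqle, at 8.16, 4.54 and 4.08 TPM on D4 and at 3.08, 1.57 and 2.14 TPM on D7, differed by as much as Cyp51 in mean TPM (2.47-fold) but missed the threshold (-0.99 ± 0.33, limma adjusted p = 0.0526). These 4 of 7 genes had an unadjusted p under 0.05 (33.5% of all genes) and no overlap between the days, which in this direction held for 33.2% of all genes. Hmgcs1 (-0.40, adjusted p = 0.184), Lss (-0.33, adjusted p = 0.376) and Idi1 (-0.18, adjusted p = 0.663) overlapped between the days.

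The calls at D7 rested on few libraries, apart from that of Fdps. When each of the 6 libraries of the comparison was left out in turn, Fdps was called in 6 of 6 fits (-1.19 to -1.03), Cyp51 in 2 of 6 and Insig1 in 0 of 6. Sqle, not called with all libraries, was called in 1 of 6. Of the 6 fits, 4 called a single gene, those without WT D4 replicate 1, WT D4 replicate 3, WT D7 replicate 2 or WT D7 replicate 3. With median-of-ratios scaling, which took the median of all genes from -0.24 to -0.01, Fdps (-0.81, limma adjusted p = 0.0127) and Cyp51 (-0.87, adjusted p = 0.0421) were called and Insig1 was not (-0.44, adjusted p = 0.135). Summed macrophage and leukocyte markers were from 2559 to 5290 TPM on D4 and from 1290 to 1776 TPM on D7 in WT muscle, and regenerating myofibre markers from 1517 to 2559 and from 216 to 658 TPM. Of these lists 0 of 8 and 4 of 8 markers were called lower, beside 9.31% of all tested genes. Their part in the fall of Fdps was not tested.

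From D7 to D14 in WT muscle the mean of each gene was lower, and 0 of 7 were called by limma (30.9% of all tested genes were called lower and 0.923% higher). An unadjusted p under 0.05 was also found for 0 of 7 (47.1% of all genes). The largest difference was that of Sqle, which ended at 1.39, 1.15 and 0.61 TPM (-0.66 ± 0.33 SE, limma adjusted p = 0.115). Fdps ended at 21.0, 17.7 and 19.8 TPM and Hmgcs1 at 12.91, 9.44 and 10.03 TPM, each below every D7 library of its gene (-0.32 and -0.42, limma adjusted p = 0.112 and 0.125). This lack of overlap, shared by 3 of 7 genes, was found in 58.9% of all genes, and the median of all genes was -0.45 against -0.32 for the 7. With median-of-ratios scaling 5.1% of genes were called higher and 8.58% lower in this step, and Fdps, Hmgcs1, Idi1, Insig1 and Lss turned from lower to higher, none of them called. The mean of D4 was 5.33 times that of D14 for Sqle, 4.34 times for Cyp51 and 2.74 times for Fdps in WT muscle, and from 1.35 to 1.98 times for Idi1, Lss, Hmgcs1 and Insig1.

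In KO muscle no gene of the 7 was called at any of the 3 steps. From D1 to D4 limma called 0 of 7 (7.18% of all genes were called higher and 12.2% lower), and 1 of 7, Insig1, had an unadjusted p under 0.05 (36.4% of all genes). Insig1 was at 11.7, 11.5 and 14.9 TPM on D1 and at 10.2, 9.28 and 6.52 TPM on D4, without overlap (-0.52 ± 0.21 SE, limma adjusted p = 0.0856). In this direction 1 of 7 and 19.8% of all genes did not overlap, and in the other 1 of 7, Fdps (0.23 ± 0.15, limma adjusted p = 0.285), and 10.9%. From D4 to D7 limma called 0 of 7, as it called 0% of all genes in either direction, and 2 of 7 had an unadjusted p under 0.05 (9.89% of all genes). Fdps went from 41.8, 37.8 and 43.1 TPM to 20.0, 29.9 and 24.5 TPM, 1.65-fold lower without overlap (-0.71 ± 0.15, limma adjusted p = 0.133). It was called when KO D4 replicate 2 was left out, the library that stood apart (-0.77, adjusted p = 0.0128), and also without KO D7 replicate 2. Lss went from 3.23, 2.85 and 1.35 TPM to 0.8, 1.03 and 1.19 TPM (-0.75 ± 0.26, limma adjusted p = 0.344), the other gene of 2 without overlap in this direction, where 6.45% of all genes had none. From D7 to D14 limma called 0 of 7, where 0.477% of all genes were called lower and 0.0827% higher, an unadjusted p under 0.05 was found for 0 of 7 (19.3% of all genes), and the differences were from -0.39 (Cyp51) to 0.29 (Idi1).

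The comparison of genotypes asked whether loss of Gsdme changed these genes at a given stage of repair. No gene of the 7 was called between KO and WT on any day. On D1 limma called 0 of 7 and 0.00636% of 15718 genes, and on D4, D7 and D14 it called 0 of 7 and 0% of genes. An unadjusted p under 0.05 was found for 0 of 7 genes on D1 (5.38% of all genes), for 3 on D4 (22.7%), for 0 on D7 (3.06%) and for 0 on D14 (2.06%). Day by day from D1 to D14, the median difference of the 7 genes, KO minus WT, was -0.02, -0.38, -0.10 and 0.21, beside 0.09, -0.28, -0.19 and 0.08 over all tested genes. The SE of a single gene was from 0.15 (Fdps) to 0.33 (Sqle), so that only differences well beyond these could have been seen with 3 libraries against 3.

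On D4 the KO libraries of Insig1, Cyp51 and Fdps were all below those of WT. Such a lack of overlap was found in 3 of 7 genes and in 11.2% of all tested genes. Insig1 was at 13.7, 13.7 and 12.1 TPM in WT and at 10.2, 9.28 and 6.52 TPM in KO (-0.57 ± 0.21 SE, unadjusted p = 0.0138 and adjusted p = 0.212 by limma). Cyp51 was at 10.54, 7.24 and 8.98 TPM in WT and at 6.88, 5.19 and 3.09 TPM in KO (-0.75 ± 0.33, limma unadjusted p = 0.0327 and adjusted p = 0.212). Fdps was at 57.0, 49.4 and 53.7 TPM in WT and at 41.8, 37.8 and 43.1 TPM in KO (-0.38 ± 0.15, limma unadjusted p = 0.025 and adjusted p = 0.212). These 3 genes thus stood apart by genotype in the raw values without passing the test. Sqle overlapped between genotypes (4.98, 3.03 and 1.97 TPM in KO, -0.62, adjusted p = 0.239), and Lss was the gene with a higher mean in KO (2.48 against 2 TPM, 0.17, adjusted p = 0.646). Without KO D4 replicate 2 the differences were -0.63 for Insig1, -0.79 for Cyp51 and -0.32 for Fdps, with an adjusted p of 0.905 each by limma. With median-of-ratios scaling they were -0.24, -0.43 and -0.03, and those of Hmgcs1 and Idi1 turned positive (0.11 and 0.13).

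On D4 the summed regenerating myofibre markers did not overlap between genotypes, while those of the macrophage and leukocyte and mature myofibre lists did. Summed macrophage and leukocyte markers were from 2559 to 5290 TPM in WT D4 and from 428 to 3605 TPM in KO D4, regenerating myofibre markers from 1517 to 2559 and from 61.9 to 1328 TPM, and mature myofibre markers from 41136 to 84942 and from 65019 to 129320 TPM. The KO sums of 428 and 61.9 TPM were those of KO D4 replicate 2, the library that stood apart from its group. Macrophage and leukocyte sums of the other KO D4 libraries lay within the WT D4 range. Limma called 0 of 8 in each of these lists. At an unadjusted p under 0.05, 2 macrophage and leukocyte markers and 8 regenerating markers were lower in KO, beside 19.1% of all tested genes. In the other direction 5 mature myofibre markers were higher, beside 3.65% of all tested genes. Their part in the D4 values of the cholesterol genes was not tested.

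On the other days the genotypes lay close. On D1, Fdps was at 33.74, 35.21 and 34.96 TPM in KO, below each of the WT D1 libraries (-0.32 ± 0.15 SE, limma adjusted p = 0.873), the 1 gene of 7 without overlap where 3.38% of all genes had none in this direction. On D7 the differences were from -0.25 (Lss) to 0.04 (Cyp51), and each gene overlapped. On D14 they were from -0.09 (Lss) to 0.33 (Idi1), and each gene overlapped again. Hmgcs1 was at 12.91, 9.44 and 10.03 TPM in WT D14 and at 10.54, 16.51 and 14.57 TPM in KO D14 (0.32 ± 0.21, limma adjusted p = 1). Idi1 was at 3.98, 3.44 and 2.93 TPM and at 3.4, 5.68 and 4.83 TPM (0.33 ± 0.27, limma adjusted p = 1). Averaged over the 4 days, limma called 0 of 7 genes (0% of all genes higher and 0.00636% lower), 0 of 7 had an unadjusted p under 0.05 (3.54% of all genes), and Fdps came nearest (-0.16 ± 0.08, unadjusted p = 0.0574, adjusted p = 0.861). The F test of whether the genotype difference varied between days called 0 of 7 and 0% of all genes (0 of 7 and 7.65% at an unadjusted p under 0.05), and its lowest p was that of Insig1 (unadjusted p = 0.0764, adjusted p = 0.527 by limma).

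**Figure D3:**
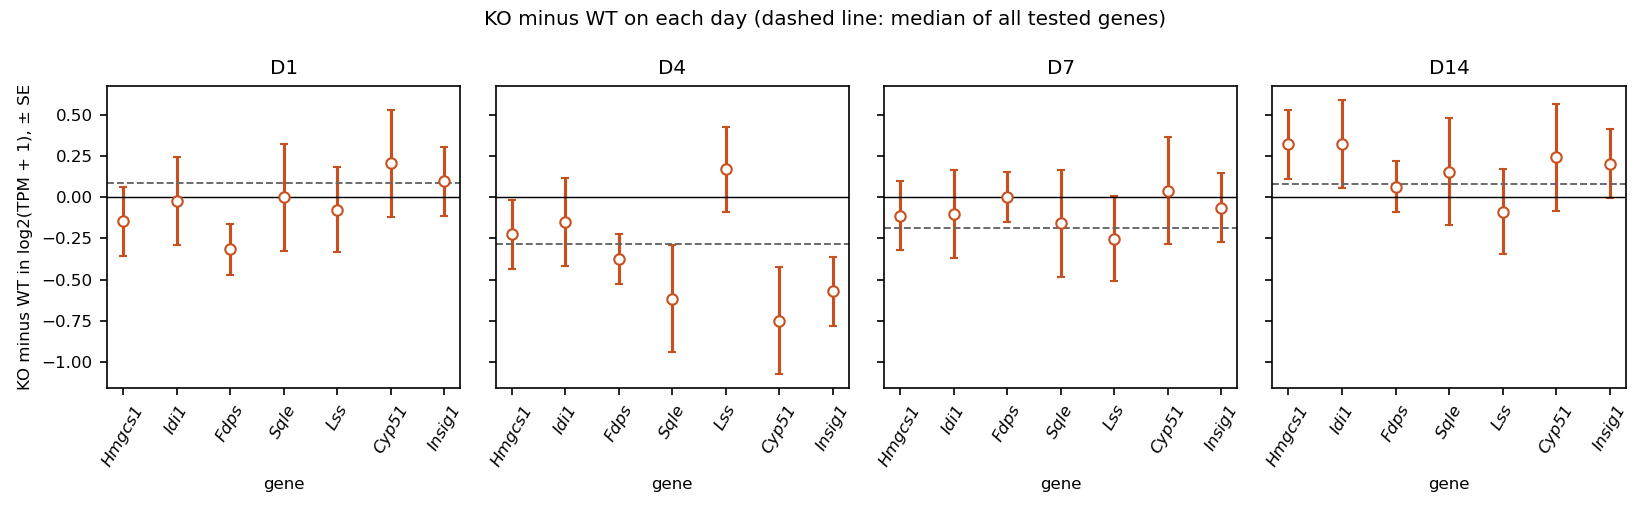
KO minus WT in log2(TPM + 1) ± SE for each gene and day (3 libraries for each genotype), with open symbols as no adjusted p was under 0.05 and a dashed line at the median of all tested genes. On D4 the values run from -0.75 (Cyp51) to 0.17 (Lss) around a median of all genes of -0.28.

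The other enzymes of the pathway were examined as a list of 14 genes, all tested. In WT D1 against control 9 of 14 were called higher and 0 lower, with a median of 0.77, where 55.4% of all tested genes were called higher with a median of 0.66. After median-of-ratios scaling 2 of 14 were called higher and 1 lower, with a median of 0.09 beside about 0 over all genes. The lowest adjusted p belonged to Msmo1, a sterol methyl oxidase that acts after Cyp51 (1.46 ± 0.29 SE, limma adjusted p = 0.00452), followed by the mevalonate decarboxylase Mvd (1.20, adjusted p = 0.00461), the sterol reductase Lbr (0.96, adjusted p = 0.00724) and the sterol isomerase Ebp (1.20, adjusted p = 0.00793). Of these 4, Msmo1 and Mvd were still called after median-of-ratios scaling (0.82 and 0.51, limma adjusted p = 0.0186 and 0.0321), and Lbr and Ebp were not (0.24 and 0.46). From D1 to D4 in WT, 2 of 14 were called higher, Mvk, the mevalonate kinase (0.66), and Dhcr7, a late sterol reductase (0.72), and 2 lower, Sc5d (-0.66) and Fdft1, the squalene synthase (-0.99), where 14.6% of all genes were called higher and 5.27% lower. With median-of-ratios scaling 1 of 14 was called higher and 4 lower in that step. From D4 to D7, 5 of 14 were called lower, with a median of -0.49, beside 9.31% and -0.24 over all genes, and with median-of-ratios scaling 2 of 14 were (median -0.24, beside -0.01). Ebp fell by 0.96 on the log2 scale (limma adjusted p = 0.0227), Pmvk, the phosphomevalonate kinase, by 0.73 (adjusted p = 0.0232) and Mvk by 0.59 (adjusted p = 0.0401). After median-of-ratios scaling Ebp was still called (-0.68), and Pmvk (-0.46) and Mvk (-0.32) were not. From D7 to D14, 4 of 14 were called lower, among them Ebp (-0.91), Mvk (-0.68) and Nsdhl (-0.65), with a median of -0.42, close to the 30.9% and -0.45 of all genes, and with median-of-ratios scaling 0 of 14 were called lower. In the same step 1 of 14 was called higher, Fdft1 (1.03, limma adjusted p = 0.0166), beside 0.923% of all genes, and also after median-of-ratios scaling (adjusted p = 0.0223). Fdft1 stands between Fdps and Sqle in the pathway, whose differences were 0.29 and 0.02 from D1 to D4 and -0.32 and -0.66 from D7 to D14, none of them called. In KO muscle 0 of 14 were called at each of the 3 steps. At an unadjusted p under 0.05 by limma there were 3, 2 and 4 of 14, beside 36.4%, 9.89% and 19.3% of all genes. With median-of-ratios scaling 3 of 14 were called lower from D1 to D4 in KO, beside 15% of all genes. Between genotypes 0 of 14 were called on each day, and on D4 Ebp (-0.85, unadjusted p = 0.00319) and Dhcr7 (-0.61, unadjusted p = 0.00675) had the lowest p (adjusted p = 0.212 each), with 3 of 14 under an unadjusted p of 0.05, beside 22.7% of all genes.

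**Figure D4:**
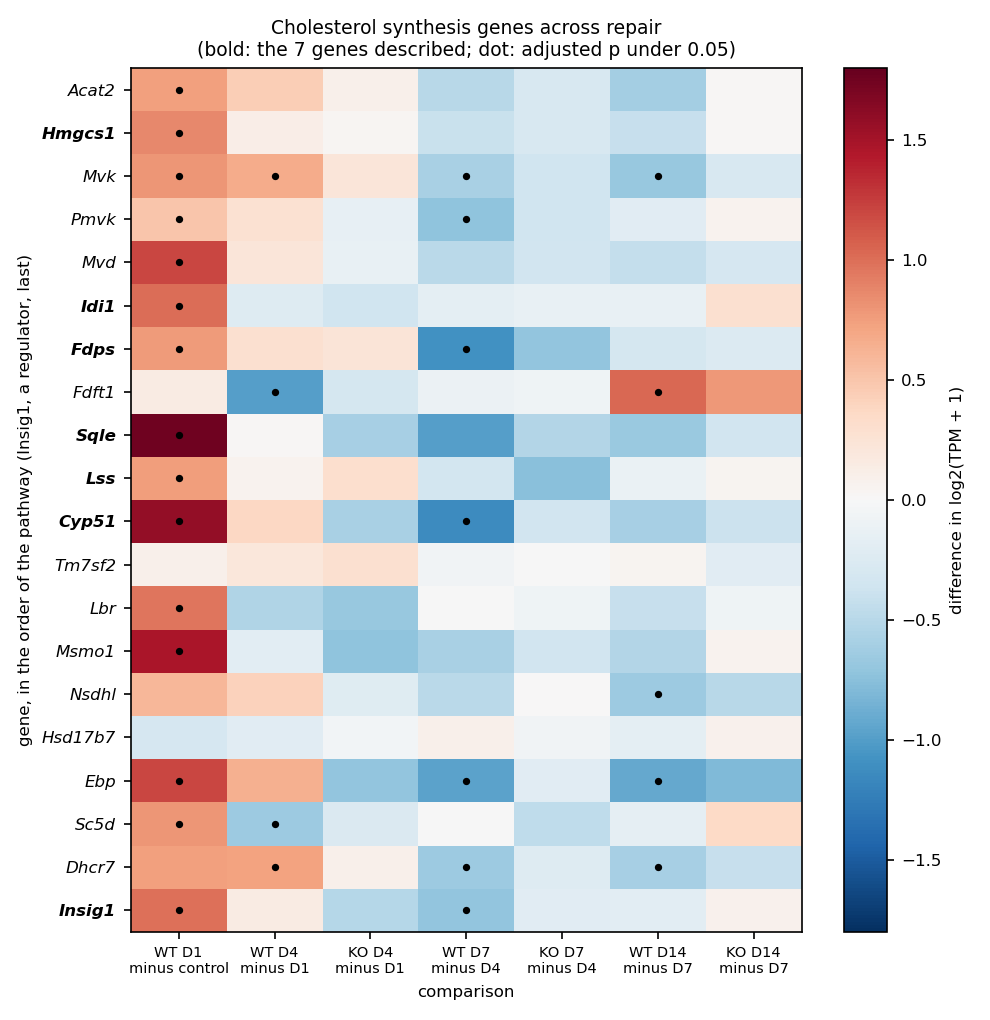
Difference in log2(TPM + 1) (colour, red higher and blue lower in the later group) of 20 cholesterol synthesis genes, the 7 described and 13 of the other 14, in 7 comparisons between neighbouring stages, in pathway order with the 7 in bold and a dot where the adjusted p was under 0.05. Dots fill the WT D1 minus control column for 7 of 7 and 8 of 13 genes, stand at 3 of 7 and 4 of 13 genes in WT D7 minus D4, and are absent from the 3 KO columns.

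Genes that act upstream of, or beside, the 7 were followed too. Of 8 sterol-sensing regulators 3 were called higher in WT D1 than in control, with a median of 0.52, which lay below the 55.4% and 0.66 of all tested genes. They were Srebf2, which encodes SREBP2 (1.42 ± 0.25 SE, limma adjusted p = 0.00308), Mbtps2, a protease that cuts SREBPs (1.06, adjusted p = 0.00688), and Stard4, a sterol carrier (0.93, adjusted p = 0.0168). With median-of-ratios scaling 1 of 8 was called higher, Srebf2 (0.68, adjusted p = 0.0167), and 2 lower, Srebf1 (-0.66) and Mylip (-0.61), and the median was -0.22. From D1 to D4 in WT 4 of 8 were called higher, with a median of 0.51 beside 14.6% and 0.17 over all genes. The lowest adjusted p among them was that of the ubiquitin ligase gene Mylip (1.55, adjusted p = 0.000517), and with median-of-ratios scaling 3 of 8 were called higher and 1 lower. From D4 to D7 in WT, 2 of 8 were called lower, Srebf2 (-1.13, limma adjusted p = 0.00966) and Srebf1 (-0.64, adjusted p = 0.0364), where 9.31% of all genes were, and with median-of-ratios scaling Srebf2 alone (-0.85, adjusted p = 0.00278). From D7 to D14 6 of 8 were called lower, with a median of -0.66 beside 30.9% and -0.45 over all genes, and with median-of-ratios scaling 0 of 8 (median -0.11). Mbtps1, another SREBP protease, had the lowest adjusted p as deposited (-0.82, adjusted p = 0.0104) and was at -0.24 after that scaling. Srebf2 on D4 differed between KO and WT by -0.61 (limma unadjusted p = 0.0188, adjusted p = 0.212).

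Of 6 enzymes that take isoprenoids into other products 5 were called higher in WT D1 than in control, with a median of 0.95, beside 55.4% and 0.66 over all genes, and with median-of-ratios scaling 1 was called higher and 1 lower (median 0.29). Nus1 and Dhdds, the subunits of the dolichol-forming enzyme, differed by 1.68 and 1.08 (limma adjusted p = 0.00207 and 0.0078), and after that scaling by 0.98 and 0.37, of which Nus1 was called (adjusted p = 0.00679). From D4 to D7 in WT 1 of 6 was called lower, Dhdds (-0.91, adjusted p = 0.0193, and -0.64 with median-of-ratios scaling, also called), beside 9.31% of all genes. In KO from D1 to D4 it was 1 of 6, Nus1 (-1.13, adjusted p = 0.0156, and -0.95 with median-of-ratios scaling, also called), beside 12.2% of all genes.

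Of 11 genes of cholesterol efflux, storage and the LXR response, 8 were called higher and 1 lower in WT D1 than in control. Their median was 1.15, where 55.4% of all genes were called higher and 5.64% lower with a median of 0.66. With median-of-ratios scaling 5 of 11 were called higher and 1 lower (median 0.41), where 21.2% of all genes were called in each direction. Soat1, which esterifies cholesterol for storage, rose by 3.29 (limma adjusted p = 0.00144) and the exporter Abcg1 by 1.90 (adjusted p = 0.00238), and both were also called after median-of-ratios scaling (2.72 and 1.40, adjusted p = 0.0036 and 0.00657). From D4 to D7 in WT 0 of 11 were called, with 4 at an unadjusted p under 0.05 by limma, where 33.5% of all genes had one. From D7 to D14 6 of 11 were called lower and 1 higher, with a median of -1.12, beside 30.9%, 0.923% and -0.45 over all genes, and with median-of-ratios scaling 4 of 11 were called lower and 1 higher (median -0.54). Scarb1 had the lowest adjusted p among them (-1.12, adjusted p = 0.00282, and -0.54 with that scaling, adjusted p = 0.0455). In KO from D1 to D4, 3 of 11 were called lower and 1 higher, where 12.2% of all genes were called lower and 7.18% higher, and the same counts were found with median-of-ratios scaling. Among them were the cholesterol hydroxylase Ch25h (-1.83, limma adjusted p = 0.00126) and the sterol hydroxylase Cyp27a1 (1.20, adjusted p = 0.00597).

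Levels of the 7 genes were positively correlated from library to library, to unequal degrees. Over the 24 injured libraries Pearson's r of log2(TPM + 1) in the 21 pairs was from 0.42 (Idi1 and Fdps) to 0.97 (Sqle and Cyp51), with a median of 0.72. With each group's mean removed it was from 0.27 (Hmgcs1 and Fdps) to 0.92 (Sqle and Cyp51), with a median of 0.65. Sqle and Cyp51 therefore tracked each other within groups as well as across them, while Fdps had its lowest within-group r with Hmgcs1 and Lss. These correlations are descriptions over libraries that share days, tissue makeup and scaling. The tested gene most like the mean z-score of the 7 was Msmo1 (r = 0.94 over 24 libraries), followed by Ing5, Raver1, Xab2, Naa40, 1700037H04Rik, Pip4k2c, Gm12250, Sf3b5 and Ppp2r1b (0.94 to 0.92). Srebf2 ranked 41 of 15718 tested genes on the same measure (r = 0.91) when the 7 genes were counted in, and Fdft1 13576 (r = -0.25). Of the 7, which are part of the score, Sqle ranked 1, Cyp51 2, Insig1 5, Hmgcs1 91, Fdps 1141, Lss 3919 and Idi1 4717. Many genes outside the pathway thus followed the score more closely than Lss (r = 0.77) or Idi1 (r = 0.74). The mean z-score also went with the mean level of the other 14 enzymes (r = 0.97, and 0.91 within groups), with macrophage and leukocyte markers (0.83 and 0.53), proliferating cell markers (0.83 and 0.60), neutrophil markers (0.74 and 0.57) and, inversely, mature myofibre markers (-0.73 and -0.55). For regenerating myofibre markers r was 0.40 and 0.19, for fibro-adipogenic progenitor markers 0.20 and 0.42, for Schwann cell markers 0.08 and 0.15, and for adipocyte markers -0.07 and 0.10. Adipocyte markers summed to from 101 to 152 TPM in WT D14 and from 400 to 1337 TPM in KO D14, without overlap. In control muscle, quantified separately, they summed to from 466 to 566 TPM. Of all tested genes 7.37% stood higher in KO D14 than in WT D14 without overlap. The 7 genes overlapped between WT D14 and KO D14, and the part of adipocytes in their levels was not tested.

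**Figure D5:**
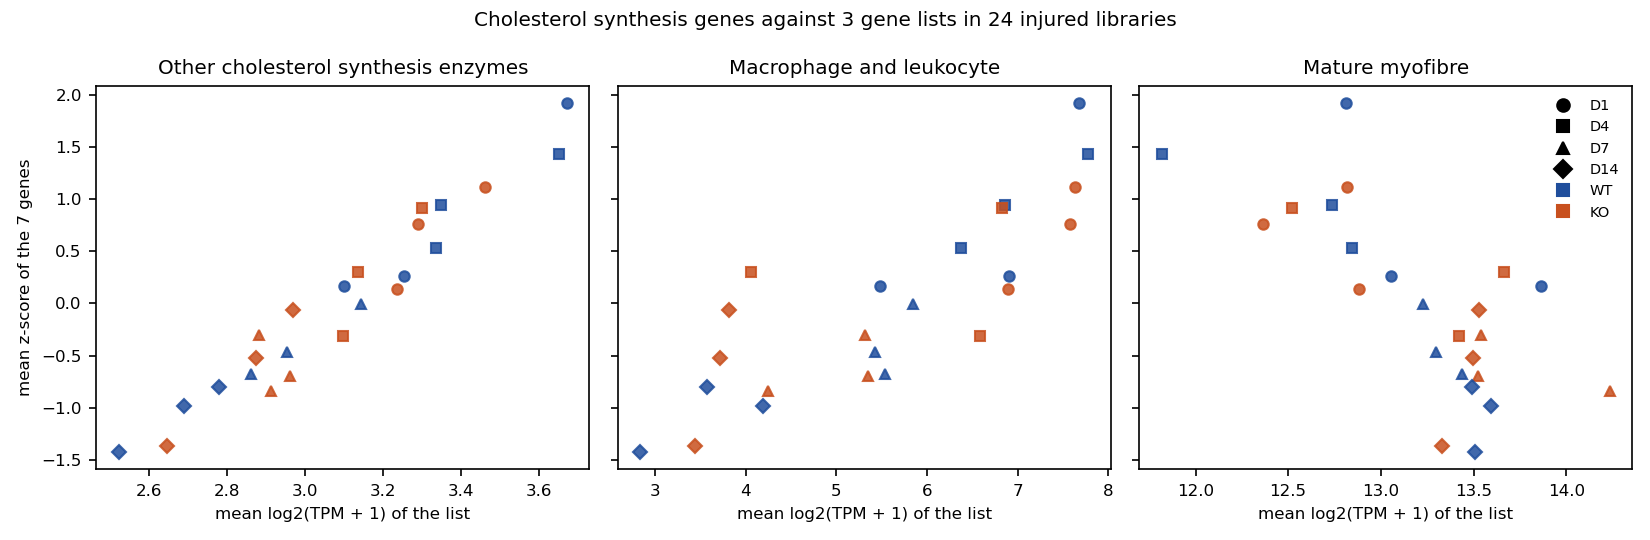
Mean z-score of the 7 genes against the mean log2(TPM + 1) of 3 gene lists in the 24 injured libraries, with WT in blue, KO in orange and days by symbol. The points rise with the other 14 cholesterol synthesis enzymes (r = 0.97) and with macrophage and leukocyte markers (r = 0.83) and fall with mature myofibre markers (r = -0.73), with days overlapping along the vertical axis.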

How the data were processed

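Per the labels, paired-end Illumina libraries were built from total RNA (SMARTER mRNA kit), and the submitters' processing notes name the mm10 build. The aligner, the counting tool and any filter are not given in the sources used here. The authors deposited TPM for each gene and library in 2 tables, 1 with the 24 injured libraries and 1 with the 3 control and the 3 WT D1 libraries, each quantified on its own, so that comparisons were made within a table. The WT D1 libraries of the 2 tables correlated at 0.997 or more. Deposited group means were not used.

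Genes with at least 1 TPM in at least 3 libraries were tested (15718 and 13041 genes) on log2(TPM + 1) with limma 3.58.1 (R 4.3.3), with a mean for each group and empirical Bayes moderation with a trend, and Benjamini-Hochberg adjustment over all tested genes. A gene was called where this adjusted p fell under 0.05. Strand use in counting was not stated, so that reads of overlapping or near-identical genes could not be told apart. The 7 genes, the pathway and marker lists and the tests were chosen with earlier results of these data known. Of each other list at most 4 genes per comparison were named, those called with the lowest p, and the 10 genes most like the 7 by Pearson's r. On simulated data with 13041 genes, 30% of changes of 1 and 84% of changes of 2 on the log2 scale were recovered for WT D1 against control, and with 15718 genes 56% and 92% for KO against WT on D4. Of the list of other enzymes 1 gene is counted but not reported here by name. Alternatives were a pseudocount of 0.1, no filter, median-of-ratios scaling, a replicate block, only the compared groups in the fit, and each library left out in turn with the tested genes kept. Promoter windows were those of RefSeq (GRCm38.p6).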

Additional observations from a re-analysis of the deposited data

How the results depend on the processing

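Of the 13 counts of genes called, each was the same within 1.5 times with a pseudocount of 0.1, and also with only the compared groups in the fit for the 10 comparisons where this could be run. Median-of-ratios scaling left 2 of 7 genes called for WT D1 minus control, and testing without a filter left 1 of 7 for WT D7 minus D4. Calls of single genes were also lost within that tolerance. With only the compared groups in the fit 2 of 7 were called for WT D7 minus D4, Cyp51 being lost (adjusted p = 0.0538), and with median-of-ratios scaling 2 of 7, Insig1 being lost. Without a filter 5 of 7 were called for WT D1 minus control, Idi1 and Lss being lost (adjusted p = 0.0716 and 0.0882), and Cyp51 and Insig1 were lost for WT D7 minus D4 (adjusted p = 0.059 and 0.0585). Leaving out 1 library at a time gave from 4 to 7 genes for WT D1 minus control (4 without control replicate 2), from 1 to 3 for WT D7 minus D4, from 0 to 1 for WT D4 minus D1 (1 without WT D1 replicate 2) and from 0 to 1 for KO D7 minus D4 (1 without KO D4 replicate 2 or KO D7 replicate 2). For WT D7 minus D4 none of these fits called Insig1, and 1 of them called Sqle. The count was unchanged at 0 in each fit for KO minus WT on each day, averaged and between days. A lone pair of libraries then stood for a group, and the spread was shared with the other groups.

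The groups share replicate numbers. Among injured libraries 24 of 84 same-numbered pairs had a correlation of their deviations over 0.1, beside 39 of 168 pairs with different numbers. Of same-numbered pairs of control and WT D1 libraries 0 of 3 had one, too few to show whether these came from the same mice. The study took its early control muscle from the other leg, and the main test treated these libraries as independent. With a replicate block 7 of 7 genes were called for WT D1 minus control and 3 of 7 for WT D7 minus D4, and no call of a gene changed in any comparison.

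Median-of-ratios scaling turned the sign of 22 single differences, 0 of them called under it. In WT these were Fdps from control to D1 (-7.11e-05), Hmgcs1, Insig1, Lss and Sqle from D1 to D4 (-0.16, -0.11, -0.11 and -0.21), Idi1 from D4 to D7 (0.051), and Fdps, Hmgcs1, Idi1, Insig1 and Lss from D7 to D14 (0.25, 0.14, 0.34, 0.33 and 0.23). In KO it was Idi1 from D4 to D7 (0.0013). For KO minus WT they were Insig1 and Sqle on D1 (-0.0127 and -0.0932), Hmgcs1 and Idi1 on D4 (0.11 and 0.13), Hmgcs1, Idi1 and Insig1 on D7 (0.11, 0.086 and 0.14), Fdps on D14 (-0.045), and Cyp51 and Hmgcs1 in the average (0.0202 and 0.0448). The cause was not tested.

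Leaving out 1 library turned the sign of differences near 0, none of them called. For KO minus WT on D1 the values were from -0.0403 to 0.56 for Cyp51, -0.24 to 0.0076 for Hmgcs1, -0.23 to 0.33 for Idi1, -0.024 to 0.29 for Insig1, -0.19 to 0.16 for Lss and -0.28 to 0.41 for Sqle. On D4 they were from -0.40 to 0.0016 for Idi1. On D7 they were from -0.18 to 0.27 for Cyp51, -0.14 to 0.14 for Fdps, -0.25 to 0.036 for Hmgcs1 and -0.32 to 0.016 for Sqle, and on D14 from -0.000963 to 0.14 for Fdps, -0.30 to 0.10 for Lss and -0.0074 to 0.28 for Sqle. In the average they were from -0.13 to 0.025 for Cyp51, -0.081 to 0.00404 for Hmgcs1, -0.049 to 0.10 for Idi1 and -0.11 to 0.0049 for Lss. For WT D4 minus D1 they were from -0.032 to 0.27 for Hmgcs1, -0.44 to 0.11 for Idi1, -0.058 to 0.29 for Lss and -0.25 to 0.43 for Sqle, and for WT D14 minus D7 from -0.31 to 0.083 for Lss. In KO they were from -0.13 to 0.14 for Hmgcs1 from D1 to D4, and from -0.13 to 0.19 for Hmgcs1, -0.12 to 0.31 for Insig1 and -0.17 to 0.19 for Lss from D7 to D14. The depth behind each TPM value is unknown, which limits what can be said of Lss and Sqle, the genes nearest 1 TPM.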
